A study of Mus musculus with 8 samples.

Results

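Ribosome biogenesis and growth genes were followed in microglia sorted from the lumbar spinal cord of mice before and after sciatic nerve transection. The set held 39 genes, chosen as a list of symbols and matched by symbol in the deposited gene list, where all 39 were found among 27998 genes. By role they fell into 6 groups, namely box C/D and box H/ACA small nucleolar ribonucleoproteins (snoRNPs), the nucleolar core with RNA polymerase I, assembly of the large subunit, assembly of the small subunit, and growth metabolism. The cells came from 8 groups, 1 library each, with 14626 cells kept. In both genotypes the summed level of the 39 genes was highest on day 1, lower on day 2 and lower again on day 3. Of single members, 34 of 39 in control and 36 of 39 in A20 cKO had their highest value of the genotype on day 1. The share of all genes with their highest value on day 1 was not computed.

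A ribosome is built in the nucleolus. RNA polymerase I transcribes the ribosomal RNA precursor, snoRNPs guide its chemical modification and cutting, and assembly factors fold it with ribosomal proteins into a small and a large subunit that mature separately and are exported. Cells raise this work before they grow and divide, together with polyamine and nucleotide synthesis, and many of the genes are known targets of the transcription factor MYC in other tissues. Microglia, the macrophages that live in brain and spinal cord, divide in the lumbar cord after injury of the sciatic nerve.

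All animals were C57BL/6, were described as young adults, and carried 1 Cx3cr1 allele with a yellow fluorescent protein (YFP) and an inducible Cre. The 4 control libraries, labelled Cx3cr1-yfp-creER/+, came from naive animals and from animals on days 1, 2 and 3 after transection. The 4 A20 cKO libraries had the same time points in animals that also carried floxed Tnfaip3 alleles (fl/fl), the gene that encodes the ubiquitin-editing protein A20. Tamoxifen was injected for recombination, and the study's methods place all experiments after it, with no separate statement on the control animals. Cx3cr1 drives both YFP and Cre, and it is also active in monocytes and border macrophages, so the sort by YFP does not by itself separate these from microglia. Cords of several animals were pooled for each library. With 1 library per group there was no replicate and no test between groups, and every interval below is a 95% interval for counting error only.

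Kept cells numbered between 558 and 3585 per library, with 1620481 to 15817426 unique molecular identifiers (UMIs, 1 per captured RNA molecule) and medians of 2780 to 4274 UMIs per cell. All 10 microglia markers were found in each library, at a summed 24297 to 40006 CPM, the UMIs scaled to a common library total of 1000000. The libraries fell into sets that the groups do not explain. Control day 3 and the 4 A20 cKO libraries shared 256 cell barcodes among themselves where 45.6 were expected, while the other 3 control libraries shared 27 where 37.9 were expected. Pairs between these sets shared 98 where 129.8 were expected. Expected numbers here come from the library sizes and the median rate of sharing over all pairs of libraries, these pairs included. They are a reference within these data and not values expected by chance. Control naive, however, shared 5 with A20 cKO day 1 and 3 with A20 cKO day 3. These are 3.76 and 3.63 times the expected number, above the lowest ratio within the first set, 2.31. The 6 neutrophil markers were at 0 in control naive, day 1 and day 2, which allows up to 1.85 CPM in the smallest of these libraries, and summed to 24.4 to 45.6 CPM in the other 5. Ependymal and choroid markers summed to at most 0.498 CPM against 132 to 425 CPM, and monocyte markers to 2.21 to 3.70 CPM against 27.0 to 86.0 CPM. Control day 3 against control naive and A20 cKO naive against control naive therefore cross between these sets. So do control day 3 against control day 2 and A20 cKO against control on days 1 and 2. Genotype or time cannot be told apart from the set in those comparisons. Tnfaip3 itself was at 24.1, 25.3, 6.83 and 20.3 CPM over the control series (naive, then days 1 to 3) and at 47.4, 42.3, 52.4 and 67.7 CPM in the A20 cKO libraries. These 3′ counts need not cover the deleted exons, so they do not check the deletion, and the names of the genotypes below follow the labels.

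The summed level of the 39 members stood at 1946 CPM (1878 to 2015) in naive control cells. It measured 3507 CPM on day 1 (3476 to 3538), 2725 CPM on day 2 (2699 to 2751) and 2301 CPM on day 3 (2266 to 2336). The A20 cKO libraries gave 2123 CPM for naive cells (2093 to 2153), then 3493 CPM at day 1 (3426 to 3559.8), 2755 CPM at day 2 (2696 to 2815) and 2397 CPM at day 3 (2337 to 2458). Neighbouring days did not overlap within either genotype, while the day 1 values of both genotypes did, and so did those of day 2. Control day 2 to day 3 crosses between the sets of libraries, and so do the day 1 and day 2 comparisons of genotypes. Time or genotype cannot be told apart from the set in them. Ncl and Npm1 made up 21.4% to 31.7% of the members' UMIs, and without them the sum was 1529.8, 2749, 2096 and 1597 CPM in the control series and 1523, 2550.2, 1919 and 1637 CPM in the A20 cKO series, in the same order of days. Among single members, 28 of 39 in control and 31 of 39 in A20 cKO descended from day 1 over day 2 to day 3. The share of all genes in that order was not computed.

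**Figure D1:**
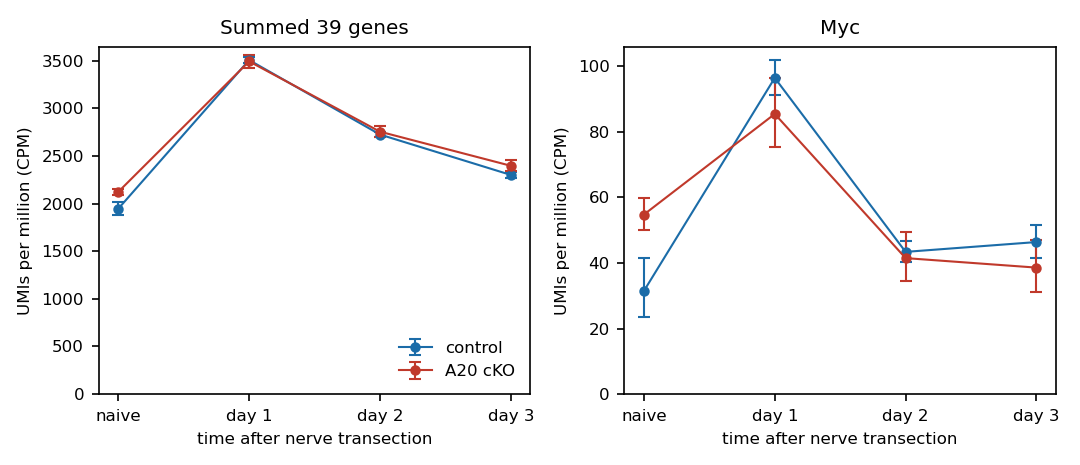
The left panel plots the summed level of the 39 genes and the right panel the level of Myc, in CPM, against time for control (blue) and A20 cKO (red), with 95% Poisson intervals for counting error as bars. Day 1 is the highest point of both genotypes in both panels, at 3507 and 3493 CPM for the 39 genes and at 96.5 and 85.5 CPM for Myc.

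Each gene was then compared between libraries as the log2 ratio of its CPM, minus the median ratio of all genes with at least 100 UMIs in both libraries together (the centred log2 ratio), and a gene was counted as higher or lower past 1.5-fold. On control day 1 against control naive, 38 members could be compared and Cad had too few UMIs. All 38 ratios were above 0, with a median of 0.95 and a range of 0.26 to 2.25, and the counting interval lay above 0 for 36. Over all genes compared the interval lay above 0 for 24.6% and below 0 for 22.2%. Past 1.5-fold, 30 members were higher and 0 lower, against 14.2% higher and 15.3% lower of the 8866 genes compared. On A20 cKO day 1 against A20 cKO naive, the median of 36 members was 0.65, with 21 higher and 0 lower past 1.5-fold, against 6.01% higher and 6.11% lower of all genes. Of these members 18 were past 1.5-fold in both genotypes, which is 18 of the 30 and 18 of the 21. The share of all genes past 1.5-fold in both genotypes was not computed. With the cells of shared barcodes left out, the day 1 medians were again 0.95 and 0.65, with 31 and 19 members higher. Of all genes 14.4% were then higher in control, and the A20 cKO share at this setting is not given here. The median gene itself shifted by -0.13 on control day 1 and by 0.04 on A20 cKO day 1, and without centring the members' medians were 0.82 and 0.69.

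On day 2 the members stood lower than on day 1 and still above naive. The control median was 0.47, with 15 of 36 higher and 0 lower past 1.5-fold where all genes had 16.4% and 14.3%. The A20 cKO median was 0.44, with 7 of 36 higher and 0 lower where all genes had 9.19% and 8.06%, so that on this day the members' share past 1.5-fold was above the background in both, though less so than on day 1. Without cells of the cell cycle, in which 3 or more core G2/M or core S genes had a UMI at full depth, the counts were 9 of 36 in control and 4 of 35 in A20 cKO, where all genes had 11.4% and 7.11%. The A20 cKO count was then near its background. On day 3 the A20 cKO median was 0.21, with 2 of 36 higher and 0 lower, a share near the background of 7.55% higher and 6.24% lower. Control day 3 against control naive, which crosses between the sets of libraries, had a median of -0.09, with 5 of 35 members higher and 6 lower against 17.7% and 12.9% of all genes.

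**Figure D2:**
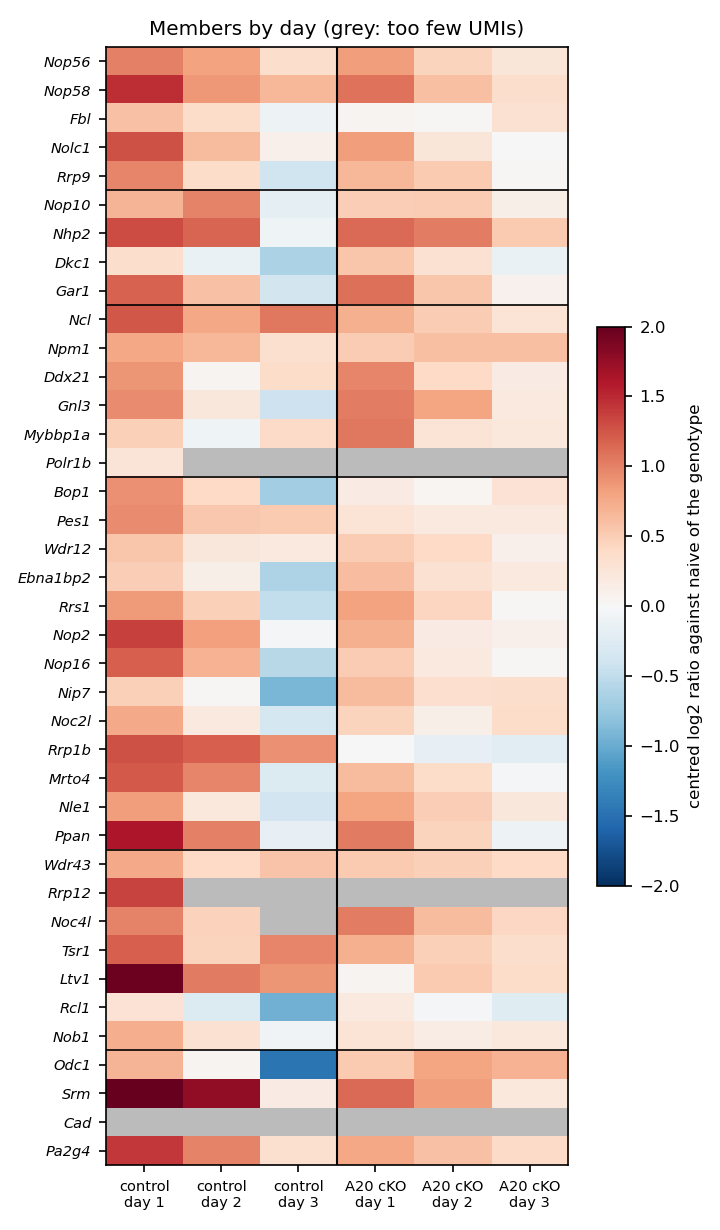
Colour gives the centred log2 ratio of each member (rows, grouped by role) on days 1, 2 and 3 against the naive library of the same genotype (columns), red for higher, blue for lower and grey where both libraries together held under 100 UMIs. The day 1 columns are red nearly throughout, the day 3 column of A20 cKO is pale with a median of 0.21, and the day 3 column of control holds both colours with a median of -0.09.

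The early response and heat shock genes, which are induced within minutes to hours by stimulation and by tissue handling, were higher on day 1 than in naive in control and lower in A20 cKO. Over naive and days 1 to 3, their 19 genes summed to 2068, 24404, 3425 and 4062 CPM for control and to 6492, 2685, 2373 and 5697 CPM for A20 cKO. The 17 of them that could be compared in control were past 1.5-fold higher on day 1, while in A20 cKO 11 of 16 were lower and 2 higher. In cells thinned to 2000 UMIs each, control day 1 cells at or below the lower quartile of early response UMIs (at most 28) held 6.89 member UMIs per cell (6.71 to 7.08), and those at or above the upper quartile (at least 64) held 6.26 (6.09 to 6.43). The control naive mean was 3.99. On A20 cKO day 1, cells at or below the lower quartile (at most 3) held 5.50 member UMIs (5.23 to 5.78) and those at or above the upper quartile (at least 7) held 8.70 (8.32 to 9.10), the opposite order. The sum itself was 24404 CPM on control day 1 and 2685 CPM on A20 cKO day 1. Which genes made it up in each library was not compared, so the order holds for the sum and not for each gene. The part of the early response genes in the members' day 1 values was not tested.

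The box C/D proteins build the particles that guide methylation of the ribosomal RNA. Nop56, a core scaffold of these particles, measured 119.7, 222, 194 and 161 CPM over naive and days 1, 2 and 3 of the control series, and 153, 281, 197 and 168 CPM in A20 cKO. Its partner Nop58 gave 36.4, 93.7, 61.6 and 61.3 CPM in the control series and 54.6, 119, 78.4 and 64.9 CPM in the A20 cKO series. Both were highest on day 1 in either genotype, with centred log2 ratios against naive of 1.01 (0.81 to 1.23) and 1.48 (1.11 to 1.89) in control, and 0.84 (0.71 to 0.96) and 1.09 (0.89 to 1.29) in A20 cKO. Fbl, the methyltransferase fibrillarin, had 131, 179.6, 156 and 129 CPM in the control series and 115, 124, 111 and 133 CPM in the A20 cKO series. Its control ratio on day 1 was 0.58 (0.38 to 0.79), short of 1.5-fold, and in A20 cKO it was 0.06 (-0.11 to 0.23), so that the catalytic member stood apart from the scaffold proteins in that genotype. Nolc1, a nucleolar chaperone of snoRNPs, and Rrp9, a protein of the particle that acts in early cutting of the precursor, were past 1.5-fold higher on day 1 in both genotypes, with ratios of 1.27 and 0.97 for control and of 0.84 and 0.66 for A20 cKO.

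The box H/ACA proteins, which guide pseudouridine formation and also belong to telomerase, split into pairs. Nhp2 measured 48.8, 111, 101 and 48.3 CPM in the control series and 35.1, 78.9, 67.6 and 47.2 CPM in the A20 cKO series, and Gar1 had 31.5, 65.9, 43.7 and 25.8 CPM in the control series and 25.1, 55.1, 34.9 and 24.8 CPM in the A20 cKO series. Both were over 2-fold higher on day 1 in either genotype (centred log2 1.30 and 1.18 in control, 1.13 and 1.10 in A20 cKO), and Gar1 was back at or below its naive level by day 3. Dkc1, the pseudouridine synthase dyskerin, stayed flatter at 48.1, 56.5, 40.5 and 32.8 CPM in the control series and 38.3, 57.8, 45.2 and 32.7 CPM in the A20 cKO series. Nop10, a small structural protein, had 96.3, 142, 177 and 89.6 CPM in control, the only member whose highest value of all 8 libraries fell on control day 2, and 87.9, 126, 119 and 88.9 CPM in A20 cKO.

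The nucleolar core held the most abundant members. Ncl, nucleolin, a nucleolar RNA-binding protein, measured 181, 390.4, 285 and 397 CPM in the control series and 309, 518, 417 and 350.2 CPM in the A20 cKO series. Npm1, the nucleolar chaperone nucleophosmin, had 235, 368, 343 and 308 CPM in the control series and 290.4, 424, 418 and 410.0 CPM in the A20 cKO series. Ncl was high on control day 3 as well as on day 1, whereas Npm1 in A20 cKO stayed near its day 1 level through day 3, where its ratio against naive was 0.60 (0.49 to 0.70), 1 of the 2 members past 1.5-fold there. Control day 3 lies in a different set of libraries from control naive, day 1 and day 2. Time cannot be told apart from the set in that Ncl value. Npm1 has processed pseudogenes, and how reads were shared with them is not given in the sources used here. Ddx21, a nucleolar RNA helicase, had 93.2, 159, 89.8 and 126 CPM in the control series and 111, 224, 139.8 and 117 CPM in the A20 cKO series, so that in control its day 2 value was already at the naive level. Gnl3, the GTPase nucleostemin, followed with day 1 ratios of 0.94 in control and 1.03 in A20 cKO. Mybbp1a, a nucleolar regulator of transcription, gave 0.47 (0.10 to 0.89) in control and 1.05 (0.83 to 1.26) in A20 cKO, and Polr1b, a catalytic subunit of RNA polymerase I, was scarce at 3.63 to 11.9 CPM.

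Assembly of the large subunit was the largest role, with 13 members. All 13 had a counting interval above 0 on control day 1 and 10 were past 1.5-fold, with a median of 0.91. All genes had 24.6% with an interval above 0 and 14.2% past 1.5-fold higher. On A20 cKO day 1 the figures were 10 and 7 with a median of 0.61, against 19.3% and 6.01% of all genes. Ppan, a factor of early large-subunit particles, measured 45.0, 127, 83.9 and 42.7 CPM in the control series and 35.0, 73.6, 45.2 and 30.3 CPM in the A20 cKO series, a short-lived increase of 3.06-fold and 2.05-fold on day 1 that was gone by day 3. Wdr12, which acts with Pes1 and Bop1 in 1 complex, had 50.6, 68.1, 54.7 and 61.1 CPM in the control series and 57.7, 84.5, 72.2 and 57.8 CPM in the A20 cKO series. Ebna1bp2, another large-subunit factor, had 58.0, 75, 58.5 and 39.9 CPM in the control series and 48.1, 75.6, 56.4 and 51.5 CPM in the A20 cKO series. Wdr12 and Ebna1bp2 were thus among the flatter members in control, with day 1 ratios of 0.55 and 0.49, and had 0.51 and 0.61 in A20 cKO. The other 2 proteins of that complex, Pes1 and Bop1, had ratios of 0.95 and 0.91 on control day 1 and 0.27 (-0.01 to 0.54) and 0.16 (-0.33 to 0.61) on A20 cKO day 1, with intervals that overlapped that of Wdr12 in each genotype. Rrp1b differed most in this role, with 1.27 (0.77 to 1.86) in control and 0.00 (-0.34 to 0.32) in A20 cKO, where its naive level of 33.9 CPM was already above the 19.1 CPM of control naive. The difference between genotypes was not tested.

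Among the 7 small-subunit factors, Wdr43, which binds the nascent precursor, measured 67.3, 105, 82.0 and 106 CPM in the control series and 86.1, 127, 114 and 106 CPM in the A20 cKO series. Nob1, the nuclease that makes the last cut of the small-subunit RNA, had 28.4, 43.5, 32.5 and 28.7 CPM in the control series and 28.9, 36.0, 30.3 and 31.1 CPM in the A20 cKO series. Tsr1, a late cytoplasmic factor, had 14.8, 31.8, 19.0 and 31.2 CPM in the control series and 21.6, 36.3, 28.7 and 25.6 CPM in the A20 cKO series. All 3 were highest or nearly so on day 1, and Wdr43 and Tsr1 were as high again on control day 3. Control day 3 lies in a different set of libraries from control naive, day 1 and day 2. Time cannot be told apart from the set in those day 3 values. Ltv1, which leaves the small subunit late in its maturation, showed the widest gap between genotypes on day 1, at 9.87 CPM in control naive and 36.1 on day 1 (centred log2 1.96, 1.29 to 2.82) against 16.1 and 17.2 CPM in A20 cKO (0.06, -0.44 to 0.52). Rcl1, a factor of early precursor cutting, had an interval that reached 0 in both genotypes, with 0.29 (-0.10 to 0.74) in control and 0.19 (-0.27 to 0.61) in A20 cKO.

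Growth metabolism held the member with the largest ratio. Srm, spermidine synthase, measured 30.9, 135, 98.1 and 36.8 CPM in the control series and 31.2, 70.0, 53.1 and 33.4 CPM in the A20 cKO series. From near-equal naive levels it was 4.74-fold higher on day 1 in control (centred log2 2.25, 1.86 to 2.70) and 2.19-fold higher in A20 cKO (1.13, 0.86 to 1.39), and it was close to naive on day 3 in both. Odc1, ornithine decarboxylase, the rate-limiting enzyme of polyamine synthesis, had 45.7, 67.2, 44.1 and 17.4 CPM in the control series and 17.5, 25.8, 28.7 and 26.4 CPM in the A20 cKO series. Its 3 highest values were those of the control libraries outside the set with shared barcodes, and the other 5 lay between 17.4 and 28.7 CPM. Pa2g4, a growth-regulated protein that binds ribosomal particles, had 51.8, 127, 95.7 and 68.3 CPM in the control series and 64.5, 113, 91.3 and 78.3 CPM in the A20 cKO series, in the same order of days in both. Cad, the enzyme that starts pyrimidine synthesis, was too scarce for comparison at 2.74 to 9.58 CPM.

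**Figure D3:**
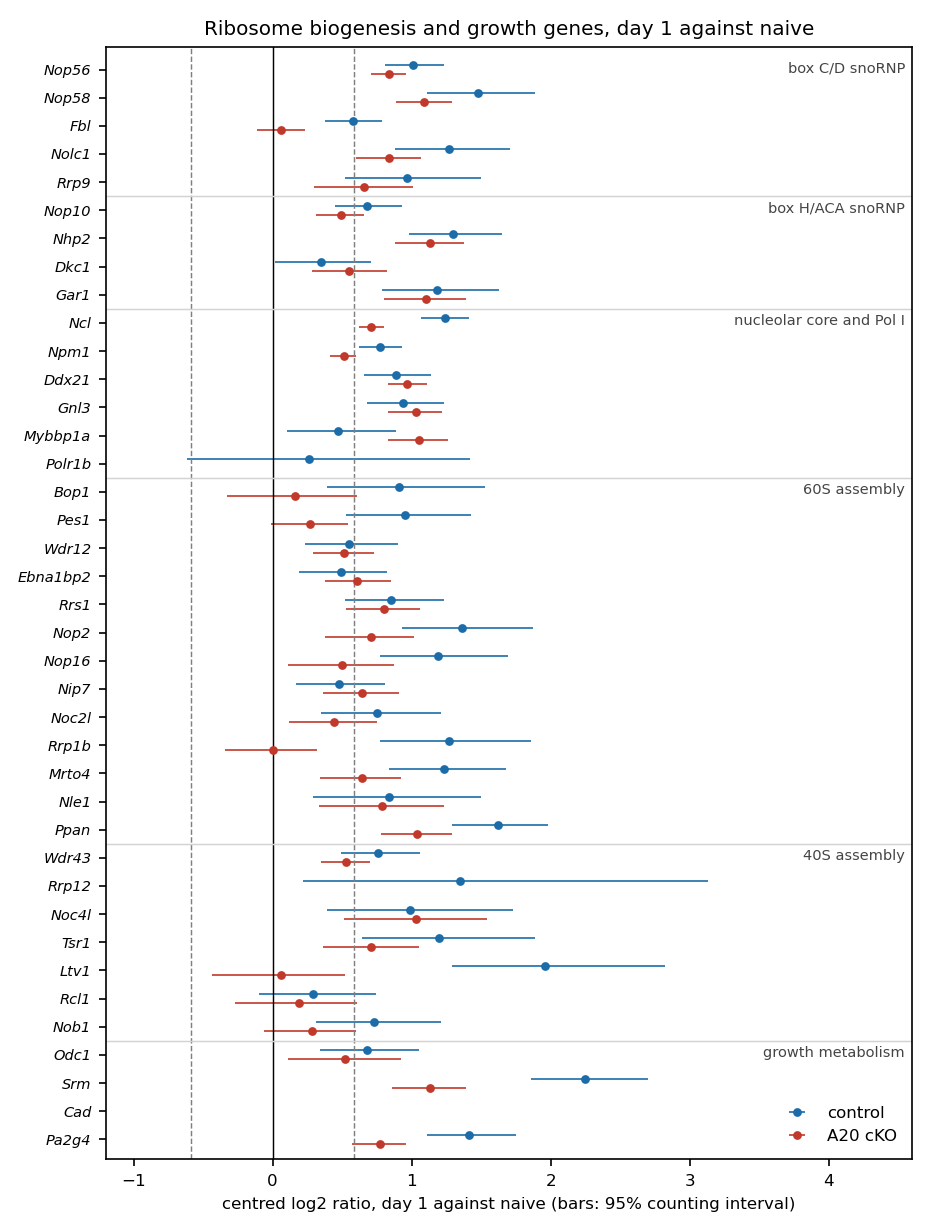
Points give the centred log2 ratio of each member on day 1 against naive in control (blue) and A20 cKO (red), bars the 95% counting interval, and dashed lines 1.5-fold. All 38 control points lie right of 0, from 0.26 to 2.25, Srm and Ltv1 lie farthest right in control, and the A20 cKO points of Rrp1b, Fbl and Ltv1 lie near 0.

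The naive libraries of both genotypes differed little in the members as a whole. On A20 cKO naive against control naive the median was -0.10 over 36 members, with 3 higher and 4 lower past 1.5-fold against 17.1% and 10.6% of all genes. Rrp1b (0.76), Ncl (0.73, 0.55 to 0.91) and Pes1 (0.56) were the highest of those whose interval left out 0, and Odc1 (-1.43, -1.84 to -1.01), Rcl1 (-0.97) and Nip7 (-0.72), a large-subunit factor, the lowest. Control day 3 against control naive shares that naive library and crosses the same sets, and its extremes were Ncl (1.06), Tsr1 (0.98) and Rrp1b (0.91) at the high end and Odc1 (-1.46), Rcl1 (-0.96) and Nip7 (-0.92) at the low end. Within the set with shared barcodes, A20 cKO day 3 against control day 3 had a median of 0.15, with 2 of 35 higher and 0 lower past 1.5-fold against 6.97% and 6.61% of all genes. The 2 were Bop1, at 18.1 against 11.8 CPM (0.74, 0.18 to 1.27), and Odc1, at 26.4 against 17.4 CPM (0.72, 0.26 to 1.15).

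Myc was lowest in control naive, at 31.5 CPM (23.4 to 41.4), and reached 96.5 (91.4 to 102) on day 1, with 43.4 and 46.4 on days 2 and 3. In A20 cKO it was 54.8 CPM (50.1 to 59.9) in naive, 85.5 (75.4 to 96.6) on day 1, 41.5 on day 2 and 38.6 on day 3. Myc and the members thus shared day 1 as their highest day in both genotypes, but on A20 cKO days 2 and 3 Myc was below its naive level while the members' sum was above it. Over single cells the relation was weak. Within control day 1, Pearson's r between Myc UMIs and the members' summed UMIs was 0.065 over 3225 thinned cells (Spearman's rho 0.063), and the 497 cells with a Myc UMI held 1.09 times (1.05 to 1.13) the member UMIs of the others. Within A20 cKO day 1, r was 0.166 over 830 cells (rho 0.140), and the 115 cells with a Myc UMI held 1.33 times (1.24 to 1.43) as many. In the other 6 libraries r lay between 0.030 and 0.175, the latter in control naive where rho was 0.014. Most cells held no Myc UMI at this depth, so these values describe sparse counts and nothing firmer.

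MYC with its partner MAX binds the motif CACGTG, which reads the same on both strands. RefSeq promoters (GRCm38.p6, 250 bases before to 50 after each annotated start) were found for 33 of the 39 members, and 7 of these 33 genes (21.2%) held CACGTG, against 8.09% of the 27025 genes in the table. The 7 were Mybbp1a, Nop2, Nle1, Pes1, Wdr43, Tsr1 and Ltv1, which all belong to the nucleolar core or the assembly roles. The windows of 4 of them are shown with the motif in capitals and 12 bases on either side, for Ltv1, the assembly factor with the largest control ratio, for Wdr43 and Tsr1 of the same role, and for Nop2, an RNA methyltransferase of the large subunit, as the window that lies before the start site.
Ltv1 (chr10:13193092-13193121, minus strand): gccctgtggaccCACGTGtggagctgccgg
Wdr43 (chr17:71616220-71616249, plus strand): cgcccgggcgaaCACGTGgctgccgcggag
Tsr1 (chr11:74898092-74898121, plus strand): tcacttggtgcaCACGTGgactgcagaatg
Nop2 (chr6:125131811-125131840, plus strand): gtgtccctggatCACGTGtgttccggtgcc
The first base of the motif lay at position -60 from the start in Nop2 and at 28, 17 and 24 in Ltv1, Wdr43 and Tsr1. On control day 1 the median ratio was 0.95 for the 7 members with the motif and 0.97 for the 25 compared without it, and on A20 cKO day 1 it was 0.71 and 0.65. A match in these letters is not a binding site, and its absence says nothing of the factor.

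Per cell, the members' UMIs were spread more widely on A20 cKO day 1 than on control day 1, a comparison that crosses the sets of libraries. Kept cells with at least 2000 UMIs were thinned to 2000, and the members then averaged 3.99, 6.81, 5.26 and 4.53 UMIs per cell over the control time points (naive first) and 4.19, 6.78, 5.19 and 4.64 over those of A20 cKO. Unthinned, the means over kept cells ran 5.55, 14.8, 12 and 7.92 for control and 6.48, 11.9, 12.5 and 10.9 for A20 cKO, which follow depth as well as level. The day 1 means were near equal, but the ratio of variance to mean was 1.62 in control and 2.91 in A20 cKO, where the 10th and 90th percentiles were 2 and 13 UMIs against 3 and 11. The A20 cKO day 1 library also held more of other cells' markers, with 425 against 0.498 CPM for ependymal and choroid genes and 45.6 against 0 CPM for neutrophil genes, and 25166 against 40006 CPM for microglia genes. Their part in the spread was not tested. Cells with at least 10 member UMIs made up 18.1% (exact binomial 16.8 to 19.5) on control day 1 and 23.3% (20.4 to 26.3) on A20 cKO day 1, against 2.39% and 2.45% in the naive libraries. Between a member and the sum of the others, the median r over cells was 0.152 over 30 members on A20 cKO day 1, with 29 above 0 and 0.423 for Ncl. It was 0.065 over 35 members on control day 1, with all 35 above 0, and lay between 0.024 and 0.078 in the other 6 libraries. For all other genes the median r with the members was at most 0.005 in any library. Differences between libraries were not tested.

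**Figure D4:**
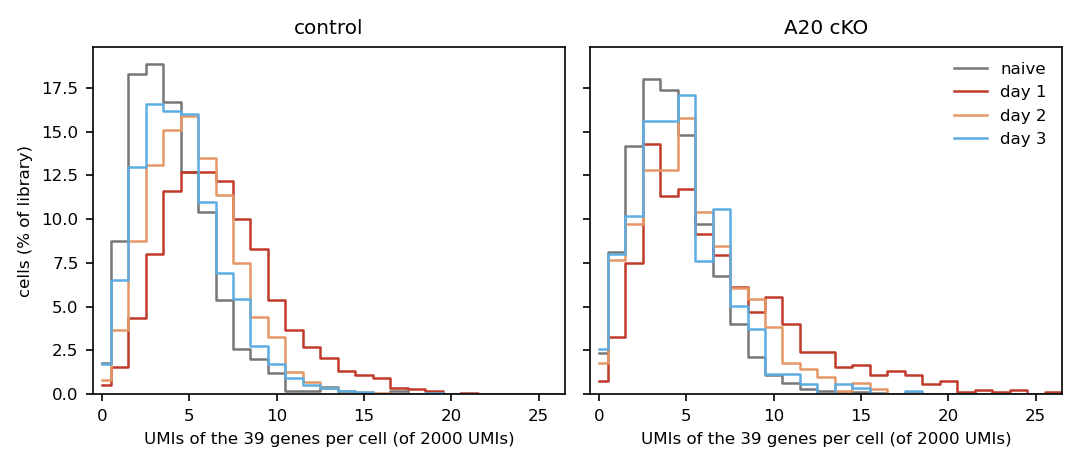
Steps give the share of cells (in % of the library) at each number of UMIs of the 39 genes per cell, after thinning each cell to 2000 UMIs, for control (left) and A20 cKO (right). The median is 4 UMIs in naive and 6 on day 1 in both genotypes, and the day 1 line of A20 cKO has a longer right tail, with a 90th percentile of 13 against 11 UMIs in control.

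What went with the members over cells differed between the day 1 libraries. Early response and heat shock genes had an r of -0.094 with the members on control day 1 and of 0.289 on A20 cKO day 1, and ribosomal protein genes 0.166 and -0.199. The 10 other genes with the highest r on control day 1 were Ccl12 (0.281), Hsp90ab1 (0.253), Gapdh (0.170), Hspa8, Ctsc, Eif5a, Set, Anp32b, C5ar1 and Eif2s2, the last at 0.141. On A20 cKO day 1 they were Hspd1 (0.330), Ccl12 (0.299), Eif4a1 (0.285), Ran, Hsp90ab1, Ranbp1, Ly86, Hspa8, Eif5a and Fcrls, the last at 0.258. Both lists held Ccl12, a chemokine, the chaperones Hsp90ab1 and Hspa8, and Eif5a, a translation factor whose modification uses spermidine. Hspa8 is itself an early response and heat shock gene. Its r was 0.158 on control day 1 and 0.270 on A20 cKO day 1, above 0 in both, unlike the sum of its list.

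The members were not confined to dividing cells. Cells in which 3 or more of 18 core G2/M genes, or 3 or more of 12 core S genes, had a UMI were set apart, first by the thinned UMIs, and the remaining cells held 3.98 member UMIs (3.81 to 4.16) among naive control cells and 6.77 (6.68 to 6.87) at day 1, where they were 98.4% of thinned cells. In A20 cKO the same cells held 4.12 (4.04 to 4.20) in naive and 6.70 (6.52 to 6.88) on day 1. Thinning leaves fewer cells that reach 3 genes. In an alternative added after seeing the data, the classes were set from all UMIs of a cell. This put 10.1% of kept cells in them on control day 1 and 41.2% on control day 2. The cells outside these wider classes held 3.98 member UMIs per thinned cell (3.80 to 4.16) in control naive against 6.59 at day 1 (6.50 to 6.68), where they made up 89.6%. For A20 cKO the naive value was 4.08 and that of day 1 was 6.37 (6.19 to 6.56), over 86.7% of day 1 cells. By thinned UMIs the core S class was higher still, at 8.85 (8.02 to 9.74) over 47 cells on control day 1 and 8.97 (7.99 to 10.0) over 34 cells on A20 cKO day 1. The summed core G2/M genes were at 33.9 CPM in control naive, 26.1 on day 1 and 928 on day 2, and at 301, 361 and 1318 CPM in A20 cKO, so that the members were highest 1 day before this sum was.

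Other genes of the same pathways, which are not members, were higher on day 1 less uniformly. Members and lists were chosen with earlier results of these data known, and the part of that choice in this contrast was not tested. On control day 1 against naive, where 14.2% of all genes were past 1.5-fold higher, 22 of 45 further large-subunit factors and 14 of 44 further small-subunit factors were past 1.5-fold higher and 0 lower, with medians of 0.57 and 0.48. The extremes among the large-subunit factors were Lyar (1.96) and Zfp593 (1.36) at the high end and Senp3 (-0.44) and Noc3l (-0.41) at the low end, and among the small-subunit factors Nhp2l1 (1.22) and Utp23 (1.21) against Nol6 (-0.44) and Nol11 (-0.05). On A20 cKO day 1, with 6.01% of all genes higher, the counts were 10 of 46 and 9 of 44, with medians of 0.29 and 0.27. Lyar, a nucleolar growth regulator, measured 14.8, 53.8, 52.5 and 25.3 CPM in the control series and 31.8, 46.9, 41.9 and 37.8 CPM in the A20 cKO series. Noc3l, the partner of Noc2l in large-subunit assembly, had 25.3 CPM in control naive and 17.6 on day 1. In A20 cKO it had 34.9 and 55.1 CPM. The interval of its control ratio was -0.88 to 0.12, and those of Senp3, Nol6 and Nol11 also took in 0.

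The other lists varied on control day 1, when 14.2% of all genes were past 1.5-fold higher and 15.3% lower. RNA polymerase I factors were mixed, with 4 of 15 higher and 1 lower. Taf1a (1.11) and Taf1d (1.04), subunits of its promoter-selectivity complex, were at the high end. At the low end were Ttf1 (-1.16), the termination factor, and Taf1b (-0.40), whose interval of -0.89 to 0.16 took in 0. In the polyamine list 2 of 11 were higher, a share near that of all genes, namely Eif5a (1.22) and Dohh (0.75), an enzyme that modifies the Eif5a protein, while Amd1 (-0.36) and Sat1 (-0.22), a catabolic enzyme, were lowest. In purine and pyrimidine synthesis 5 of 15 were higher and 0 lower, a share of higher genes above that of all genes. The list was led by Ppat (1.88), which catalyses the committed step of purine synthesis, and Impdh2 (1.31), with Prps2 (-0.09) and Gmps (-0.01) lowest. Only 1 of 9 genes of the MYC and MAX network, Myc itself (1.73), was higher and 3 were lower, with Max at 0.39, Mycl, a MYC paralog, at -1.33 and Mnt, a repressor that binds MAX, at -0.71. The ribosomal protein genes, the products that these factors assemble, had a median of 0.24 with 6 of 83 higher and 1 lower on control day 1, below the share of all genes, and of 0.56 with 32 higher on control day 2, against 16.4%. On control day 3, which crosses between the sets, their median was 0.14 with 4 higher and 2 lower, against 17.7% and 12.9%. In A20 cKO their medians were 0.17, 0.47 and 0.49 on days 1, 2 and 3, with 1, 16 and 17 of 83 higher against 6.01%, 9.19% and 7.55% of all genes. In that genotype they were thus lowest relative to naive on the day the members were highest, while in control their lowest median was that of day 3.

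No member's gene body overlapped a protein-coding gene annotated on the same strand, while several, among them Nop56, Bop1, Rrp1b and Tsr1, overlapped one on the opposite strand. In GENCODE M21 on GRCm38, Ncl lies at chr1:86344719-86359400 on the minus strand and Nop56 at chr2:130274430-130279313 on the plus strand, and their gene bodies hold 3 and 5 annotated snoRNA genes. Srm lies at chr4:148591503-148594993, Ppan at chr9:20888175-20892178 and Odc1 at chr12:17544794-17551505, all on the plus strand, and Ltv1 at chr10:13178140-13193168 on the minus strand. The sequences of these 3′ libraries come mostly from the ends of transcripts, so none of the counts tells an isoform.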

How the data were processed

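The deposited files hold UMI counts, not normalised, for each gene in each cell barcode, which the authors made with Cell Ranger 2.1.1 on mm10 per the submitters' processing notes. Cells were FACS-sorted with doublets excluded by scatter, and no doublet caller was run here. Labels and methods name different kit versions. Of 27998 gene identifiers 98.7% matched GENCODE M21. Cells with at least 1000 UMIs, 500 genes and at most 10% mitochondrial UMIs were kept (14626 of 14883). UMIs were summed per library. Ratios had 0.5 UMIs added to each sum. Intervals are exact Poisson for levels, exact conditional for ratios and exact binomial for shares, at 95%, and cover counting error only, since each group had 1 library. For comparisons over cells, each cell with at least 2000 UMIs was thinned to 2000. Ratios were tested on simulated data. Tools were Python 3.11.15, numpy 2.4.6, scipy 1.17.1 and pandas 2.3.3.

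The members, roles and gene lists were chosen with earlier results of these data known. Members given library by library were all members of a role with 4 or fewer and otherwise the 3 with the most UMIs. In each comparison the 3 largest and 3 smallest ratios with an interval off 0 were also marked for naming. From other lists the 2 largest and 2 smallest on control day 1 were marked. Not all of the ratios so marked are printed. The 10 genes most correlated with the members on each day 1 were named too. Other members named in the text were chosen after their values were seen. Samples were grouped by their labels. Alternatives changed the cell filter, the scaling, the minimum of UMIs, the fold and the thinning.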

Additional observations from a re-analysis of the deposited data

Results flagged for a closer look

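Odc1, which encodes the rate-limiting enzyme of polyamine synthesis, differed in direction between genotypes on day 3. Its centred log2 ratio against naive was -1.46 in control and 0.70 in A20 cKO, and both counting intervals left out 0. The large-subunit factor Nip7 also had opposite signs, at -0.92 (-1.28 to -0.55) in control and 0.35 (0.01 to 0.67) in A20 cKO. Its A20 cKO ratio was short of 1.5-fold, its interval only just left out 0, and without centring it was 0.25. The difference between genotypes was not tested in either case, because each group had 1 library. Control day 3 and control naive belong to different sets by shared barcodes, and the part of this in both results was not tested.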

How the results depend on the processing

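The higher median of the members on day 1 in both genotypes kept its direction under all 9 alternatives of cell filter, scaling and UMI minimum, and so did that of day 2. Of 72 recomputed medians 61 moved by less than counting error and 0 changed sign past it. Without centring the medians were 0.82 and 0.35 on control days 1 and 2, 0.36 and 0.11 on A20 cKO days 2 and 3 and 0.03 for A20 cKO day 3 against control day 3, and the A20 cKO counts past 1.5-fold were 4 on day 2 and 1 on day 3. With genes of at least 1 UMI in both sums the medians were 1.14 and 0.65 on control days 1 and 2 and 0.36 and 0.11 on A20 cKO days 2 and 3. The counts were then 1 lower on A20 cKO day 2, 1 higher and 1 lower on A20 cKO day 3, 6 higher and 2 lower for the naive libraries and 1 lower for A20 cKO day 3 against control day 3. Without cells of the core G2/M and core S classes the day 2 medians were 0.36 in control and 0.33 in A20 cKO, with 9 and 4 members higher. At 2-fold, 16, 5 and 1 members were higher on control days 1, 2 and 3 and 8, 1 and 0 in A20 cKO, with 1 lower on control day 3, and 0 higher and 1 lower for the naive libraries. Of all genes, 5.09%, 7.18% and 7.48% were 2-fold higher on control days 1, 2 and 3, and 3.02% lower on control day 3. The 1 of 35 members higher on control day 3 was a share below that of all genes. The count for A20 cKO day 3 against control day 3 was 0 at 2-fold and at 200 UMIs. That for A20 cKO day 3 was 1 with the stricter cell filter. Except for the setting without the core G2/M and core S classes, shares of all genes beside these A20 cKO and naive counts are not given here. Those counts are therefore not read against a background. Pearson's r with Myc moved by over 0.05 in 7 of 48 recomputations: in control naive it was 0.064 and 0.038 at 1000 and 3000 UMIs and 0.109 without shared barcodes, on A20 cKO day 1 0.058 at 1000 UMIs and 0.109 without the cycling classes, on day 2 0.118 unthinned and on day 3 0.019 without shared barcodes. The causes were not tested, beyond the settings that change the threshold or the genes compared. No paired analysis was possible because each group had 1 library.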
